A study of Mus musculus with 2 samples.

Results

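Integrins are cell-surface receptors made of an alpha and a beta chain, and 10 genes for chains used by myeloid cells and osteoclasts are described here in macrophages and osteoclasts. The genes were Itgav, Itgb3, Itgb5, Itgb1, Itga4, Itga5, Itgb2, Itgam, Itgal and Itgax, taken by symbol, out of 18193 genes that had a probe set with a single gene symbol. They were read by 31 of the 45101 probe sets on each array. Expression had been measured on 2 Affymetrix arrays, 1 per cell type, with total RNA of cultured bone marrow cells of C57/Black6 mice aged 8 weeks. In both groups, marrow was first grown for 3 days in M-CSF, the growth factor of the macrophage lineage, and cells that adhered were kept as shared progenitors. The macrophage array holds cells then given M-CSF alone, and the osteoclast array holds cells that also received RANKL, the TNF family cytokine needed to form osteoclasts, both for 6 days. No mutant allele is named, and the labels do not say whether both cultures came from the same animals or how many animals were pooled. Signals of sex-linked genes, given below, differed between the arrays.

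The beta chain decides much of what an integrin does inside the cell, since its short tail binds talin and kindlin, while the alpha and beta head pieces together choose the ligand. The alpha v chain pairs with beta 3 to form the vitronectin receptor, through which osteoclasts attach to RGD-containing proteins of bone and form the sealing zone, and with beta 5 to form a related receptor of macrophages and their precursors. Beta 2 pairs with the leukocyte alpha chains of Itgal (LFA-1, CD11a), Itgam (Mac-1, CD11b) and Itgax (CD11c). Beta 1 pairs with the chains of Itga4 and Itga5 to bind VCAM-1 and fibronectin.

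Stretches of promoter are shown for 4 of the genes: the shared partner Itgav, its beta chain Itgb5, whose signal was lower in osteoclasts, and the leukocyte genes Itgam and Itgax, which differed in opposite directions relative to the shift between the arrays. Each is the 250 bases before the RefSeq start site in build GRCm38.p6, 5′ to 3′ on the gene's own strand, which is the plus strand for these 4. Capitals mark any match, on either strand, to 4 motifs: GGAAA (the core bound by NFAT factors), TGANTCA (AP-1), GAGGAA (PU.1) and CATGTG (an E-box of MITF). GGAAA and GAGGAA can overlap by 4 bases.
Itgav, chr2:83724147-83724396: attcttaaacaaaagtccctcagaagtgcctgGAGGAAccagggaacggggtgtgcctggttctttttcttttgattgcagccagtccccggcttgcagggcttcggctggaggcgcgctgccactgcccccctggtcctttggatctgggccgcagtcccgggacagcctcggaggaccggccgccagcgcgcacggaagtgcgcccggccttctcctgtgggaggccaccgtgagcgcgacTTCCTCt
Itgb5, chr16:33829415-33829664: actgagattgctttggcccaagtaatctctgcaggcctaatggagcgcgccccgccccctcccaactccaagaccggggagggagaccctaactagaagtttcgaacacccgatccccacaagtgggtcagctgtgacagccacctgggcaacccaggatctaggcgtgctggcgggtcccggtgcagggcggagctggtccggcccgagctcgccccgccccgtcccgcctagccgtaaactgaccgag
Itgam, chr7:128062390-128062639: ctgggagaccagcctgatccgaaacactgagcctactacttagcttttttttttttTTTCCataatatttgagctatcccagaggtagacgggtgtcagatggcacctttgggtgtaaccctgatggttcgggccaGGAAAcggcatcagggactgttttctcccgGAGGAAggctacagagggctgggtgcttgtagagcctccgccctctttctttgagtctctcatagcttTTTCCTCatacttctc
Itgax, chr7:128129300-128129549: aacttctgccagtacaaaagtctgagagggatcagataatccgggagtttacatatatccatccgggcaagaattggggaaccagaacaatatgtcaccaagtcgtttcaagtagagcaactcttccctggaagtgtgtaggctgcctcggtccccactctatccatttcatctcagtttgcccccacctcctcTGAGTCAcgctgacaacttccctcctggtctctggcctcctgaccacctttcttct
The Itgam window held 3 matches to GGAAA and 2 to GAGGAA, Itgav held 2 to GAGGAA, Itgax held 1 to TGANTCA, and Itgb5 held none of the 4 motifs. Over the 7 of the 10 genes with an entry, 3 held GGAAA, 4 GAGGAA, 1 TGANTCA and 0 CATGTG. Among all 32851 promoter windows of the same length, 55.6% held GGAAA, 23.3% GAGGAA, 6.75% TGANTCA and 12.3% CATGTG. A match is only a run of letters, and the arrays do not measure binding. Itgb3, Itgb2 and Itgal had no entry. In the GRCm38.p6 gene table no protein-coding gene lies between the start of Itgam and that of Itgax.

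Since each cell type has 1 array, nothing checks a difference against replicates, and the values below carry no test or p-value. Signals are the deposited linear intensities, and a signal counted as measured above a floor, the 40th percentile of each array (17.0 in the macrophage array, 14.4 in the osteoclast array). At the median of the 23708 probe sets above both floors, the osteoclast array was 1.35-fold dimmer. Log2 differences are therefore given as osteoclast over macrophage relative to this shift (-0.43), unless said to be as deposited. The offset was smaller for dim signals. A probe set at the floor in both arrays differs by -0.24 as deposited, which reads 0.19 relative to the shift. The error available comes from genes read by several probe sets, whose differences had an SD of 0.49 within a gene on the log2 scale (5435 genes), which holds no variation between cultures or animals. The 9 osteoclast markers examined, Acp5 and Ctsk among them, all stood 2-fold or more above the shift in the osteoclast array, and 6 of 9 macrophage markers stood 2-fold or more under it, although all 9 stayed above the floor. Xist, the RNA of female cells, gave 1872 in macrophages and 22.1 in osteoclasts. The Y-linked Eif2s3y gave 0.571 and 321, Kdm5d 6.14 and 63.5 and Uty 14.7 and 72.7. These are signals of female cells in the macrophage array and of male cells in the osteoclast array. The 2 cultures thus differed in their animals, and the treatment and the animals cannot be told apart in any result.

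All 10 integrin genes passed both floors, and most of them differed little. Itgb3 was at least 2-fold higher in osteoclasts, Itgb5 and Itgal were at least 2-fold lower, and the other 7 differed by less. Among all 13647 genes measured, 7.11% were higher and 6.99% were lower by 2-fold or more, so the counts of 1 and 2 are close to the background, and it is the size of single differences that stands out. As deposited the counts were 1 higher, against 3% of all genes, and 3 lower, against 17.5%, with Itgam as the added gene. The median over the 10 genes was -0.061, beside 0.0041 over all genes measured. In bulk cultures, fewer cells of a type and less RNA per cell cannot be told apart.

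**Figure D1:**
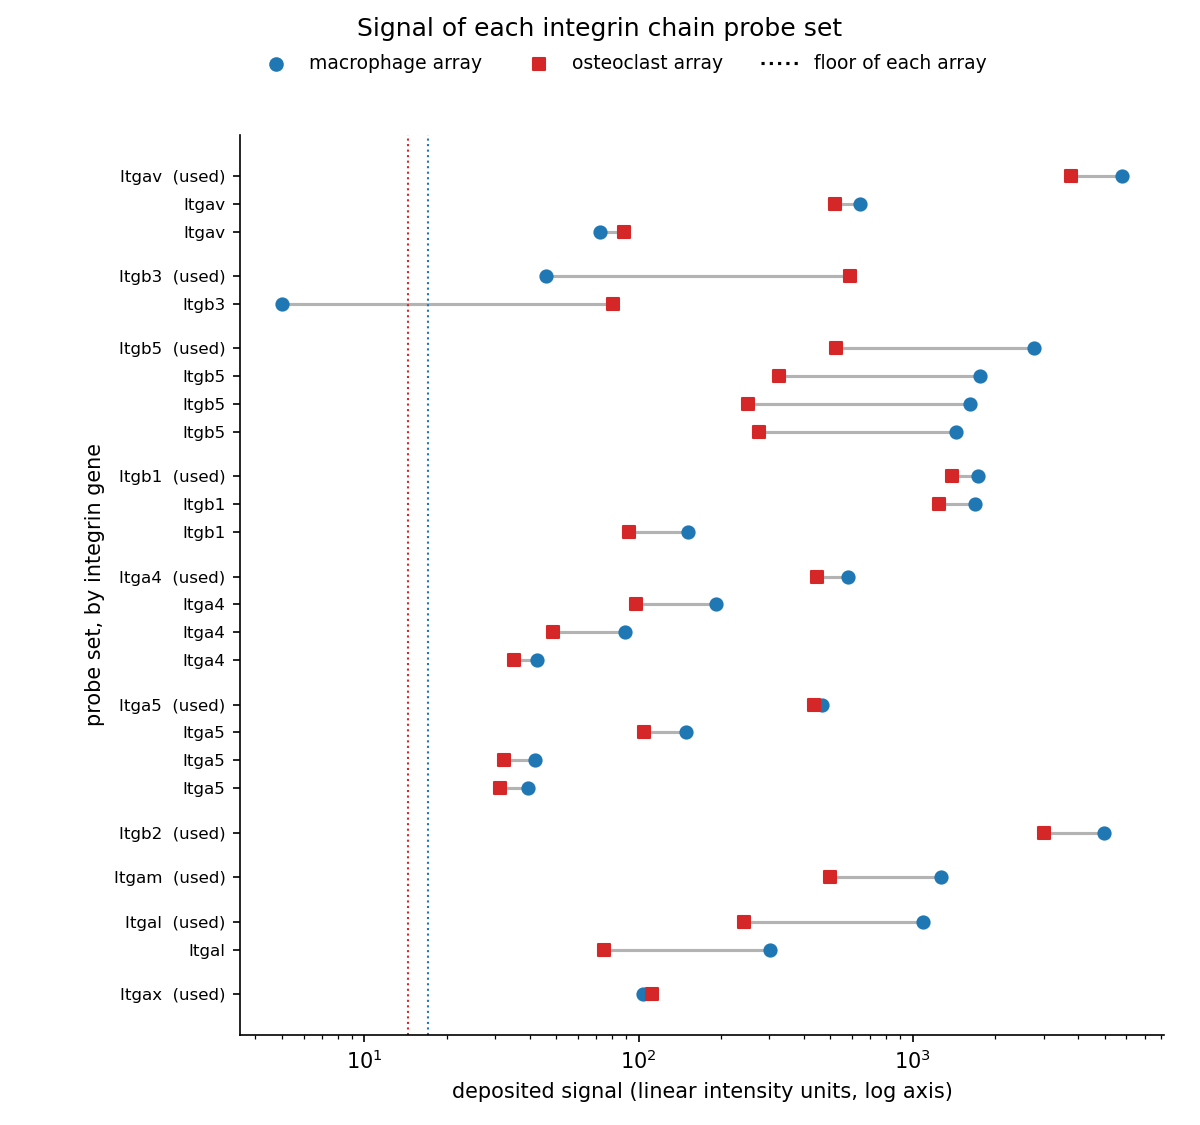
Deposited signal (linear intensity, log axis) of each integrin probe set above the floor in at least 1 array, in macrophages (circles) and osteoclasts (squares), with the floors dotted and the probe set used for each gene marked. Both Itgb3 probe sets lie further right in osteoclasts (590 against 46.1 for the brighter), all 4 Itgb5 and both Itgal probe sets lie further left, and the points of the Itga5 probe set used (467 and 436) nearly meet.

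In the alpha v group, the 2 beta chains differed in opposite directions. Itgb3, whose product gives the alpha v beta 3 receptor of osteoclasts, stood at 46.1 in macrophages against 590 in osteoclasts. This is a difference of 4.11 on the log2 scale, 17.3-fold relative to the shift and 12.8-fold as deposited, and 8.32 times the spread between probe sets. Only 26 of the 13647 measured genes differed by more in this direction. A second Itgb3 probe set gave 5.01, below the floor, in macrophages and 80.6 in osteoclasts. This one was at least 3.84-fold higher when the macrophage signal is raised to 28.3, a level of background set at the 95th percentile of odorant and vomeronasal receptors, whose genes are not known to be used in these cells.

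Itgb5, the beta chain of the alternative vitronectin receptor, went the other way. The brightest probe set read 2760 in macrophages against 526 in osteoclasts, a difference of -1.96, or 3.89-fold lower relative to the shift and 5.25-fold as deposited. All 4 probe sets of Itgb5 lay between -2.25 and -1.96, with an SD of 0.14. Of all genes measured, 1.00% lay lower. The differences of Itgb3 and Itgb5 were 6.07 apart on the log2 scale, where the spread between probe sets gives the distance of any 2 genes an SD of 0.70. This distance does not depend on the shift between the arrays.

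Itgav, the alpha chain that both partners need, stayed close to the shift on its brightest probe set. This probe set gave 5788 in macrophages and 3784 in osteoclasts (-0.18 relative to the shift, -0.61 as deposited), a smaller difference than the spread between probe sets. The other measured probe sets were at 640 and 520 (0.13) and at 72.4 and 88.3 (0.72), and 2 more were below the floor in both arrays. The direction for Itgav thus depended on the probe set and is not settled. The Itgb3 difference exceeded that of Itgav by 4.29, and that of Itgb5 fell short of it by 1.78.

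**Figure D2:**
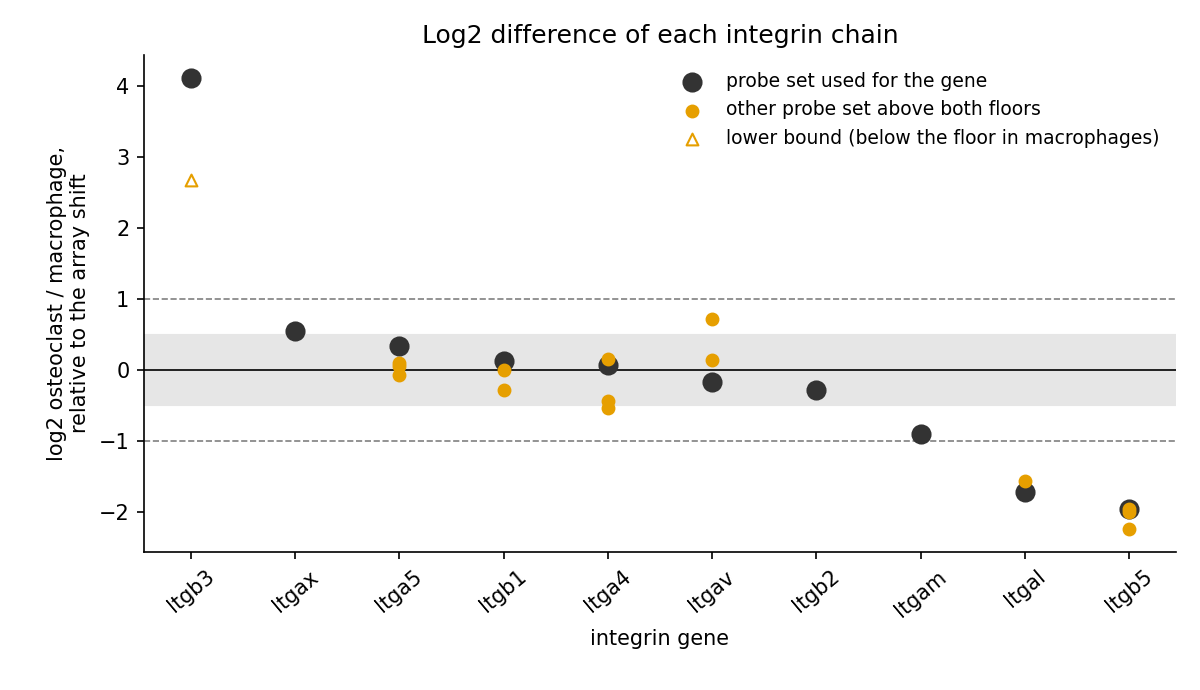
Log2 difference, osteoclast over macrophage relative to the shift between the arrays, for each integrin gene (large dots: the probe set used; small dots: other probe sets above both floors; triangle: a bound with the macrophage signal at the floor). The grey band is 1 SD between probe sets of a gene (0.49) and dashed lines mark 2-fold. Itgb3 stands at 4.11, Itgal at -1.73 and Itgb5 at -1.96, and the other 7 genes lie within 2-fold.

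Relative to the shift, the beta 2 integrins of leukocytes were not lower as a block: the shared beta chain stayed near it while its alpha chains spread apart. Itgb2 gave 4973 in macrophages and 3013 in osteoclasts. The difference was -0.29 relative to the shift, less than the spread between probe sets, and -0.72 as deposited, beyond it. Itgal, the alpha chain of LFA-1, which binds ICAM-1 and ICAM-2, gave 1086 and 243 (-1.73, 3.31-fold lower), and its other probe set gave 300 and 74.6 (-1.58). Both probe sets of Itgal were lower in osteoclasts by over 3 times the spread, and 1.55% of all genes lay lower still.

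Itgam, which encodes CD11b of the complement receptor Mac-1, gave 1269 in macrophages and 500 in osteoclasts. The difference was -0.91 relative to the shift, short of 2-fold, and -1.34 as deposited, past it. Its size was 1.85 times the spread between probe sets. Itgax, the alpha chain CD11c of dendritic cells and some macrophages, was dim at 104 and 112 (0.54 relative to the shift, 0.11 as deposited), close to 1 SD of the spread. The neighbouring genes Itgam and Itgax were thus 1.45 apart, and Itgax and Itgal 2.27. Itgb2, Itgam and Itgax each have 1 probe set, so no second reading exists for them.

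Markers of other leukocytes that use beta 2 integrins were read beside Itgal and Itgam. Granulocyte markers, 11 measured of 12 with a probe set, had a median of 1.39. Their summed signal was 3734 in macrophages and 6380 in osteoclasts. Relative to the shift 8 were higher and 1 lower by 2-fold or more (72.7% and 9.09%), beside 7.11% and 6.99% of all genes. As deposited 5 were higher and 1 lower (45.5% and 9.09%), beside 3% and 17.5%. Elane and Ctsg were below the floor in macrophages, and Ctsg was only at least 1.70-fold higher at the receptor level of background. Fcnb, the lower one, gave 57.0 and 6.09, at least 1.64-fold lower at that level. Mmp8 differed by -0.22, and Cxcr2 was below the floor in both. For T and NK lymphocytes, 3 of 8 markers were measured with a median of -0.64, the sums were 666 and 278, mostly from Il7r (-1.25), while Cd5 was below the floor in macrophages (12.9) and at 44.9 in osteoclasts, and Cd3e, Cd3d and Cd3g were below the floor in both arrays. Of 5 B lymphocyte markers 3 were measured, with a median of -1.14 and sums of 231 and 87.3, and Cd79a and Ms4a1 were below the floor. Dendritic cell markers were measured for 5 of 8, with a median of -0.073 and sums of 222 and 106, and Ccr7, Ccl22 and Siglech were below the floor in both. The part of these cells in the integrin values was not tested.

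The beta 1 integrins were near the shift in all 3 genes. Itgb1, the most widely used beta chain, gave 1734 in macrophages and 1391 in osteoclasts (0.11), and 2 further measured probe sets gave -0.0021 and -0.28. Itga4, whose product pairs with beta 1 or beta 7 and binds VCAM-1, gave 578 and 446 (0.058), with its other 3 measured probe sets from -0.54 to 0.15. Itga5, the fibronectin receptor chain, gave 467 and 436 (0.34), with its other 3 from -0.079 to 0.097. As deposited the differences were -0.32, -0.37 and -0.097. Each was within the spread between probe sets, and 3 Itgb1 probe sets and 1 Itga4 probe set were below the floor in both arrays.

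Of the 31 integrin probe sets, 24 passed both floors, 1 that of osteoclasts alone and 6 neither. Over the 6 genes with several measured probe sets, the SD between them was 0.27 on the log2 scale. As a level across the 2 arrays, 8 of the 10 genes had a lower deposited signal in osteoclasts, the exceptions being Itgb3 and Itgax, and 5 of 10 lay above the shift. Over all genes measured the median was -0.43 as deposited and 0.0041 relative to the shift, so neither count is read as a trait of these genes.

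The genes whose 2 signals were nearest to those of Itgb3, by Euclidean distance of the log2 signals over the 2 arrays among 11468 other genes measured in both, were Ppargc1b, a coactivator of mitochondrial genes (49.0 and 625), Cd109 (54.7 and 598), Edil3 (55.6 and 598), Rab38 (38.8 and 518) and Chst11 (73.5 and 476). Their distances were 0.12, 0.25, 0.27, 0.31 and 0.74. Nearest to Itgb5 were Fyb (2845 and 594), Nceh1 (2599 and 588), the mannose receptor gene Mrc1 (2504 and 603), the folate receptor gene Folr2 (2790 and 631) and Nrp1 (3269 and 571), at distances from 0.18 to 0.27. With only 2 arrays, this likeness describes a pair of signals and no more.

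Other integrin chains, 14 of 16 listed having a probe set and 11 being measured, held 1 gene higher and 3 lower by 2-fold or more on both scales, 9.09% and 27.3% of those measured, beside 7.11% and 6.99% of all genes (3% and 17.5% as deposited). Itgb7, the other beta partner of the Itga4 chain, gave 74.9 in macrophages and 266 in osteoclasts (2.26) on its single probe set. Itga6, a laminin receptor chain, gave 3017 and 401 (-2.48), with its second probe set at -3.10. Itga8, which pairs with beta 1, gave 237 and 32.2 (-2.45), and Itga9 gave 115 and 22.9, at least 3.29-fold lower, with another probe set at -0.79. The platelet chain Itga2b, the other alpha partner of beta 3, gave 74.6 and 79.8 (0.53). Itga3 differed by -0.28 and Itga1 by 0.39, the latter below the receptor level of background in both arrays. Itga2, Itgb8, Itga7 and Itgb6 were above the floor in 1 array only and under 28.3 and 25.8, the receptor levels of background, in both. Itgae, Itgb4 and Itga10 were below the floor in both.

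**Figure D3:**
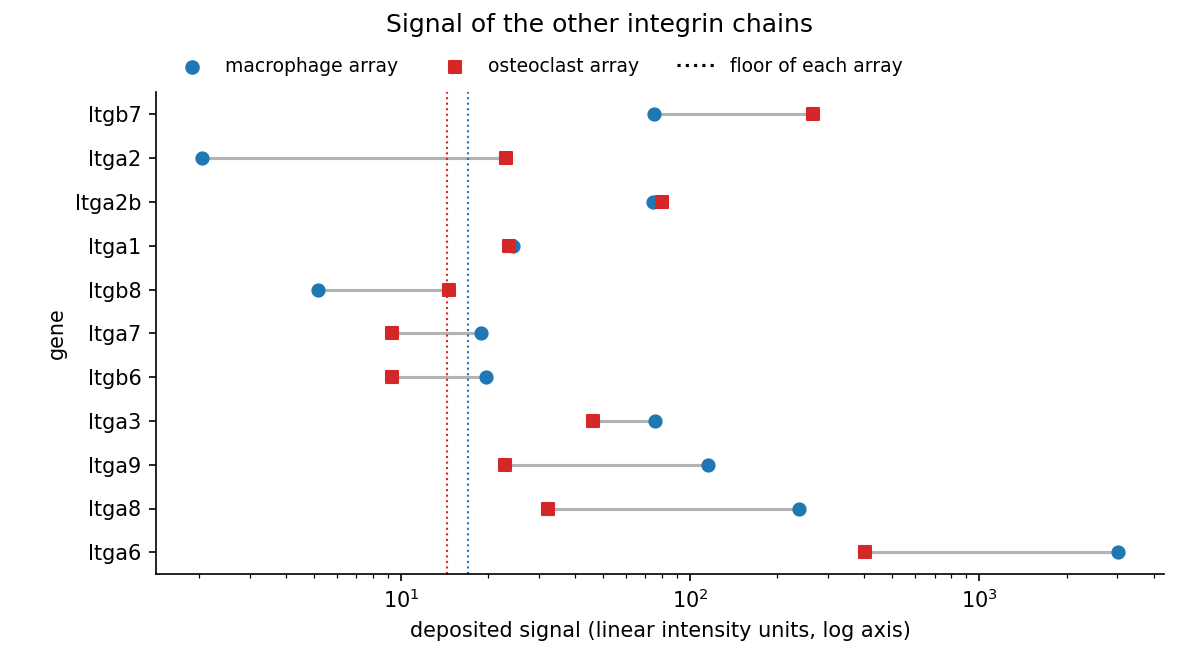
Deposited signal (linear intensity, log axis) of the 11 other integrin chains above the floor in at least 1 array, in macrophages (circles) and osteoclasts (squares), ordered by their difference, with the floors dotted. Itgb7 lies further right in osteoclasts (266 against 74.9), while Itga6, Itga8 and Itga9 lie further left and the remaining chains are dim or close together.

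Megakaryocyte and stromal markers were read beside these chains, since platelets carry beta 3 and stromal cells carry alpha 8, alpha v and beta 5. Of 10 megakaryocyte markers with a probe set all 10 were measured in at least 1 array, with a median of 0.38, and their sums were 8899 in macrophages and 2027 in osteoclasts, most of it Pf4. Gp9 and Selp were below the floor in osteoclasts and Vwf in macrophages (13.9, against 95.5). Of the 10, 2 were higher and 2 lower by 2-fold or more (20% and 20%), beside 7.11% and 6.99% of all genes. As deposited 1 was higher and 3 were lower (10% and 30%), beside 3% and 17.5%. At the receptor level of background Vwf was at least 4.55-fold and Gp6 at least 1.69-fold higher. Treml1 was at least 2.04-fold lower there, and Pf4 differed by -1.97. Stromal markers were measured for 8 of 8, with a median of 0.24 and sums of 12907 and 7614. All 8 are named here. Col1a2 gave 5744 and 2895 (-0.56, other probe set 0.090) and Col1a1 2078 and 1381 (-0.16, other probe set 0.77). Sparc gave 3705 and 1535 (-0.84, other probe set -0.38) and Cxcl12 307 and 130 (-0.81, other probe set -1.53). Col3a1 gave 767 and 1255 (1.14), Pdgfrb 249 and 335 (0.86) and Alpl 41.4 and 47.4 (0.63). Dcn was below the floor in macrophages. Of the 8, 2 were higher and 0 lower by 2-fold or more (25% and 0%), beside 7.11% and 6.99% of all genes. As deposited 1 was higher and 2 were lower (12.5% and 25%), beside 3% and 17.5%. Dcn, 1 of the 2 higher genes, was only at least 1.76-fold higher at the receptor level of background. The part of megakaryocytes and stromal cells in the integrin values was not tested.

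In the ligands and counter-receptors of integrins, 18 were measured, of which 1 was higher and 3 were lower by 2-fold or more (1 and 6 as deposited), with a median of -0.34. These are 5.56% and 16.7% of the list (5.56% and 33.3% as deposited), beside 7.11% and 6.99% of all genes (3% and 17.5%). Edil3, a secreted RGD protein bound by alpha v beta 3 and alpha v beta 5, was the higher one at 55.6 and 598 (3.86), and its second measured probe set gave 3.48. Icam2, a ligand of the Itgal product, gave 162 and 44.6 (-1.42), the matrix protein gene Thbs1 gave 3390 and 1163 (-1.11, other probe set -0.46), and Lama5 gave 58.9 and 10.9. Lama5 is counted as 2-fold lower with its osteoclast signal at the floor, but it was only at least 1.69-fold lower at the receptor level of background, where 2 ligands remain in the count. Icam1, Vcam1 and Fn1, chosen for their role after their values were seen, differed by 0.33, -0.90 and -0.43. Another probe set of Fn1 gave 0.57 and one of Vcam1 gave -0.14, so the direction of Fn1 depended on the probe set. Spp1 and C3 were not analysed here.

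Among activators and adaptors that bind integrin tails or link them to actin, 25 of 25 were measured, none was 2-fold higher and 3 were at least 2-fold lower (0 and 7 as deposited), with a median of -0.20. The lower genes were 12% of the list (28% as deposited), beside 6.99% of all genes (17.5%). The absence of higher genes stands beside 7.11% of all genes (3% as deposited). The 3 were Fyb, an adaptor of leukocyte integrin activation (2845 and 594, -1.83, other probe set -1.34), Apbb1ip, which encodes the Rap1 effector RIAM (291 and 72.3, -1.58, other probe set -0.32), and Rasgrp2, an exchange factor for Rap1, at least 2.59-fold lower with another probe set at -0.34. The tail-binding proteins themselves, named for their role after their values were seen, differed by less than 2-fold. Tln1 (talin) gave 1433 and 1401 (0.40, probe sets from -0.41 to 0.40). Tln2 gave 72.3 and 80.3 (0.58) on the only 1 of its 3 probe sets above both floors. Fermt3 (kindlin-3) gave 4392 and 2219 (-0.55, probe sets from -0.55 to -0.20). The readings used for Tln2 and Fermt3 lay beyond 1 SD between probe sets, but not every probe set of Fermt3 did.

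Of kinases and other signalling genes downstream of integrins, 21 were measured, with 5 higher and 2 lower by 2-fold or more (5 and 6 as deposited) and a median of -0.13. The higher genes were 23.8% of the list on both scales, beside 7.11% of all genes (3% as deposited), and the lower ones 9.52% (28.6%), beside 6.99% (17.5%). Src, a kinase that binds the beta 3 tail and is needed for the ruffled border of osteoclasts, gave 78.3 and 341 (2.55, other probe set 2.44). Dock5, a Rac exchange factor, gave 142 and 712 (2.76, other probe sets up to 3.43), and the Src family kinase gene Fgr gave 92.6 and 224 (1.70). Rac2 (1.64) and the adaptor gene Bcar1 (1.57, other probe set -0.14) were the other higher ones, named after their values were seen. Lower were Ptk2b, the focal adhesion kinase family member Pyk2 (799 and 201, -1.56, other probe set -1.61), and the exchange factor gene Vav1 (509 and 156, -1.27, other probe set -0.97). Lyn, Ptk2 and Nedd9 were not analysed here.

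Membrane proteins that associate with integrins were measured for 12 genes, with 2 higher and 3 lower by 2-fold or more (1 and 5 as deposited) and a median of -0.25. These are 16.7% and 25% of the list (8.33% and 41.7% as deposited), beside 7.11% and 6.99% of all genes (3% and 17.5%). Cav1, the caveolin gene, gave 956 and 2750 (1.96), and the tetraspanin gene Cd82 gave 410 and 806 (1.41, 0.98 as deposited). Cd36, a scavenger receptor, gave 10752 and 1900.5 (-2.07, lowest probe set -3.43), the tetraspanin gene Cd81 gave 2826 and 826 (-1.34), and Slc3a2, the CD98 heavy chain that binds beta tails, gave 3111 and 1117 (-1.04). Over these 5 lists together relative to the shift 9 genes were higher and 14 lower by 2-fold or more, and as deposited 8 and 27, so the higher genes made up 39.1% and 22.9% of those past 2-fold. Over all measured genes these shares were 50.4% and 14.6%, so the lists lay under the background on the first scale and above it on the second.

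**Figure D4:**
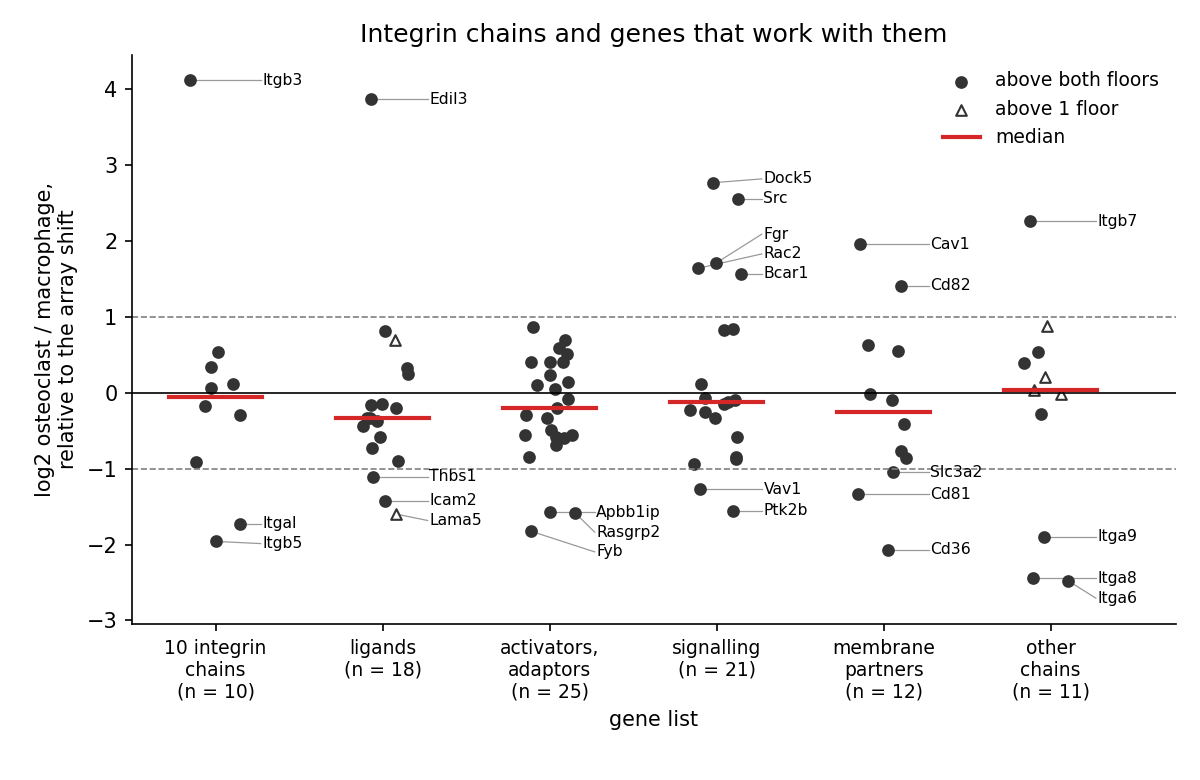
Log2 difference, osteoclast over macrophage relative to the shift between the arrays, of each measured gene in the 10 integrin chains and in 5 lists of other integrin genes (dots: above both floors; triangles: above 1 floor, as bounds; red lines: medians; dashed lines: 2-fold), with the genes past 2-fold named. List medians run from -0.34 to 0.037, and Itgb3 and Edil3 stand furthest above the rest at 4.11 and 3.86.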

How the data were processed

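Total RNA of 2 cultures was hybridised to Affymetrix arrays after one-cycle labelling of 1 µg, per the labels' protocols. The authors deposited 1 linear intensity per probe set and array; the sources used here do not give the method of summarisation, correction or scaling. The 64 control probe sets were left out. Genes were named by the platform annotation, using the 34945 probe sets with a single symbol, and the Entrez identifiers of all 10 integrin genes matched the GRCm38.p6 RefSeq table.

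Where a gene had several probe sets, the brightest on average over both arrays (log2 scale) stood for it. Signals under the floor were raised to it. The shift is the median log2 difference, osteoclast minus macrophage, over 23708 probe sets above both floors. Bounds written "at least" raise the dimmer signal to the 95th percentile of 78 receptor probe sets, 28.3 in macrophages and 25.8 in osteoclasts; 20.5% and 15.4% of these probe sets were above the floor. From each further list the 3 largest differences of at least 2-fold in each direction are named. Genes and lists were chosen with earlier results of these data known. Computation used Python 3.11.15, numpy 2.4.6 and pandas 2.3.3, and was tested on simulated data. The number of arrays limits the precision.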

Additional observations from a re-analysis of the deposited data

How the results depend on the processing

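The differences and counts of the 10 integrin genes and the 2-fold counts of the 5 other lists were recomputed under 9 alternatives. These were the values as deposited, quantile normalization, the floor at the 25th percentile, at the receptor level or absent, and log2(value + 16). The others were the mean over probe sets, the dimmest measured probe set, and only plain _at probe sets, without _a_at, _s_at or _x_at. For the 10 integrin genes, 87 of the 90 values moved by less than the spread between probe sets (0.49) and 0 changed sign past 2-fold. Many of these values could not have moved that far. Leaving the shift in moves every gene by 0.43, and removing the floor changed none. Another floor moved every gene by the same small amount, and Itgb2, Itgam and Itgax have 1 probe set each. The 87 of 90 is therefore no measure of how firm the values are. The mean over probe sets gave 3.39 for Itgb3, and its dimmest probe set gave 2.67 with the macrophage signal at the floor, so both hold a bound. The dimmest Itgav probe set gave 0.72. Itgb3 ranged from 2.67 to 4.13, Itgb5 from -2.39 to -1.94, Itgal from -2.16 to -1.58 and Itgam from -1.34 to -0.86. In the 5 other lists 9 genes were higher and 14 lower by 2-fold or more, and 8 and 27 as deposited, where the shift is not taken off. The mean over probe sets gave 8 and 10, and the dimmest probe set 10 and 10. This mean took in probe sets below the floor in both arrays, which all read 0.19 relative to the shift. With the floor at the 25th percentile or absent the counts were 12 and 14, and with the floor at the receptor level 9 and 13. The excess of lower genes thus depended on the scale, on the floor and on the choice of probe set. Of the counts of single lists, 73 stayed within 1.5 times and 17 did not, 6 with more and 3 with fewer higher genes, and 4 with more and 4 with fewer lower genes. No paired analysis was possible because each group has 1 array, and no array could be left out.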
